A study of Mus musculus with 6 samples.

Results

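Among the regions of open chromatin that were found in all 6 libraries of a mouse liver ATAC-seq series, 415 were clearly lower after Cre was delivered to mice with a floxed gene for the nuclear receptor corepressor NCOR1 and another floxed gene. Peaks of all 6 deposited lists on chromosomes 1 to 19 and X (mouse build mm10) that shared at least 1 bp were merged into 109853 regions, and 51749 of these, the shared regions, had a peak in every library. The value of a region in a library was its highest normalized tag count, a read signal normalized for depth by HOMER. A region was taken as clearly lower when its lowest control value was at least 1.4 times its highest double knockout (dKO) value, which held for 0.802% of the shared regions. The mirror rule, with the groups exchanged, was met by 955 regions (1.85%). The regions were chosen by their normalized tag counts in both groups, so their difference between the groups is described and not tested. Positions, peak shape and the values of other regions nearby were not used by the rule.

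All mice were male and carried 2 floxed genes, Ncor1 and another. The control group (3 libraries) received an adeno-associated virus (AAV) carrying eGFP, labelled AAV-eGFP, and the dKO group (3 libraries) one carrying Cre recombinase, labelled AAV-Cre. Livers were taken 5 days past the virus, at zeitgeber time 10, and HNF4a-positive nuclei were sorted for Omni-ATAC. The promoter that drove Cre is not given in the labels, nor is it said that the libraries are separate animals, so the p-values rest on a spread between libraries that may be technical. Whether the floxed parts were lost in these nuclei was not tested. The series title names corepressors, the glucocorticoid receptor and hepatic gluconeogenesis as the subject of the study.

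ATAC-seq uses the Tn5 transposase, which inserts sequencing adapters into DNA that is not wrapped tightly in nucleosomes, so promoters and enhancers in use give peaks of reads. NCOR1 is a large scaffold protein that nuclear receptors recruit, mostly in the absence of an activating ligand, and that brings histone deacetylase 3 to chromatin. In liver it is best known for repression of lipid and metabolic genes by receptors such as REV-ERB, the thyroid hormone receptor and the liver X receptor. HNF4a is a nuclear receptor and a defining transcription factor of hepatocytes, and most of its sites lie in enhancers far from the genes they serve.

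Of the 415 regions, 15 lay over the promoter window of a protein-coding gene in the RefSeq promoter table (assembly GRCm38.p6, which is mm10; 250 bases before and 50 after a listed start). The windows of Slc2a2 (the glucose transporter GLUT2 of hepatocytes), Cyp2d9 (a steroid hydroxylase more abundant in male than in female mouse liver), Aass (the first enzyme of lysine breakdown), Sult1b1 (a sulfotransferase of thyroid hormones and phenols) and Mcm3 (a subunit of the replicative helicase) are shown as examples of a clearly lower region that meets the start of a gene with a known role in metabolism or replication. Each is given 5′ to 3′ on the gene's strand for the 250 bases up to the start, with the bases inside the clearly lower region in capitals.
Slc2a2 promoter, chr3:28697653-28697902, plus strand: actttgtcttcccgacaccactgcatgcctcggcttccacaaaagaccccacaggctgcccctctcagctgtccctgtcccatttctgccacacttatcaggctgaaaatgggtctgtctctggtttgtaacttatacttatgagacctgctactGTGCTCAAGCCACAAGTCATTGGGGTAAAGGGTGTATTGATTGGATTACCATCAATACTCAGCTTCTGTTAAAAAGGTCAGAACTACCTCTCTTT
Cyp2d9 promoter, chr15:82452127-82452376, plus strand: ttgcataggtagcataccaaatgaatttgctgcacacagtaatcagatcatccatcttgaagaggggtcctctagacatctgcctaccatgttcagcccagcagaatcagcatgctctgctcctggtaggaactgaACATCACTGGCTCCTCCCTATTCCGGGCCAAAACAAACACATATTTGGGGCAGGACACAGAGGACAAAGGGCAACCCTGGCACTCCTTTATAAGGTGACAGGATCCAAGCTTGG
Aass promoter, chr6:23132987-23133236, minus strand: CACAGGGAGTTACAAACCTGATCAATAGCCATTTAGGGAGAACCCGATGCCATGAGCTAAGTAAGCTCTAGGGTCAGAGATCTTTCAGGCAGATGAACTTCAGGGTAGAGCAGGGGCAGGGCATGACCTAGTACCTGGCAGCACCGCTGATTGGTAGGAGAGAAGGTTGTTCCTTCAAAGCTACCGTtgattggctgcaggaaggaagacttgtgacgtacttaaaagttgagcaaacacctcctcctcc
Sult1b1 promoter, chr5:87538196-87538445, minus strand: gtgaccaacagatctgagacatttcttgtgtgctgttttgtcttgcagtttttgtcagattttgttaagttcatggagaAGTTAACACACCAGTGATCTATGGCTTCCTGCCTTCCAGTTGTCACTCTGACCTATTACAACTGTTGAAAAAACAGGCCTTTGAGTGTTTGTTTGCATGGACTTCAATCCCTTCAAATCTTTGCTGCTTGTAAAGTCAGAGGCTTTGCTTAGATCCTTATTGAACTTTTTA
Mcm3 promoter, chr1:20820313-20820562, minus strand: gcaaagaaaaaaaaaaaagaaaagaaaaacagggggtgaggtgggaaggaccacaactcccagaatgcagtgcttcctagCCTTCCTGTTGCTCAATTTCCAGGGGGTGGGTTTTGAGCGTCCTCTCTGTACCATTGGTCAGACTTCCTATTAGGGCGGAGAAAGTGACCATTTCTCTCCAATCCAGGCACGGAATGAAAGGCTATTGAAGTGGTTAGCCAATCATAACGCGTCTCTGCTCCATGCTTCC
The capitals reached to the base before the start in Slc2a2, Cyp2d9, Sult1b1 and Mcm3. In Aass they covered the upstream end of the window and stopped short of the start.

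Letters of known motifs were searched on both strands of these 250 bases in the 27 distinct windows that met a clearly lower region. Positions count back from the start to the leftmost base of the match. At Gm15343 and Gm46248 the region met only bases after the start, so 0 of the searched bases lay in it. The windows of Tdrkh and 1700040D17Rik overlapped on opposite strands, as did those of Stt3a and Gm26787, so the same letters can count in both. The nuclear receptor hexamer AGGTCA was in the windows of Slc2a2 (-21), Sult1b1 (-123) and Aass (-127), and inside the capitals in each. It was in 7 of the 27 windows, beside 14.1% of all 32619 promoters of the table. At Ctcflos it was also inside the clearly lower region, and at Gm34805, Gm39354 and Ccdc85a it lay outside. The C/EBP letters TTGCNNAA were in 6 windows (9.62% of all promoters), the CCAAT box CCAAT in 16 (34.0%) and the GC box GGGCGG in 10 (33.0%). The Mcm3 window held CCAAT 3 times (-117, -72 and -32) and GGGCGG once (-97). The glucocorticoid receptor hexamer AGAACA was in 3 windows (16.1%) and the full palindromic glucocorticoid response element in 0 (0.389%). These matches describe the letters only, and no binding was measured.

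The 6 peak lists held 68316 to 84614 peaks. Peak width was 108 bp in control 1, dKO 1 and dKO 2 and 166 or 172 bp in the other 3 lists, so both groups were represented in both width classes. The median over the shared regions was 16 to 16.3 normalized tags in the controls and 15.6, 13.5 and 17.4 in dKO 1, 2 and 3. The smallest step between low values, read as 1 tag, was worth 0.0479 to 0.0608 normalized tags. By that step the lowest value of a clearly lower region rested on 123 to 136 tags in a control library and on 65 to 69 in a dKO library, so each value carried a counting error of its own. All libraries are bulk, and a smaller share of open nuclei cannot be told apart from a smaller signal in each nucleus.

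The clearly lower regions had a higher median control mean than all shared regions and lay below the diagonal in dKO nuclei. The rule used these same values, so it fixed the place below the diagonal and favoured higher control means. Their control means ran from 7.02 to 70.7 normalized tags with a median of 22.2, against a median of 16.2 over all shared regions. Their dKO means had a median of 9.87. The control mean over the dKO mean ran from 1.52 to 4.58 times with a median of 2.13. The margin that the rule used, lowest control over highest dKO, had a median of 1.49, quartiles of 1.44 and 1.58, and a maximum of 2.54. Most regions therefore sat close to the limit of 1.4.

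**Figure D1:**
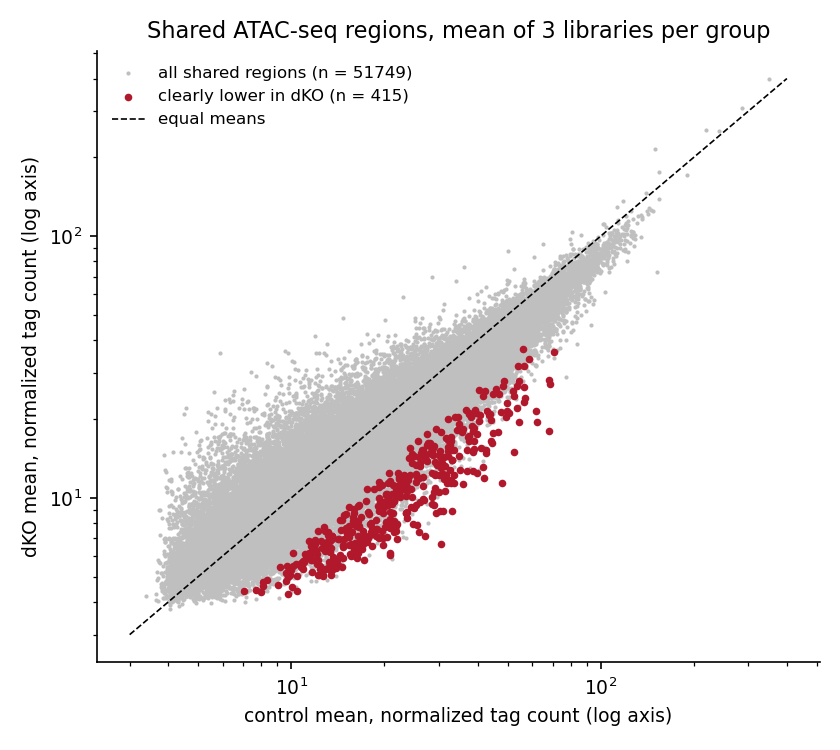
Mean normalized tag count of each shared region in the 3 control libraries (x, log axis) and the 3 dKO libraries (y, log axis), with all 51749 shared regions in grey, the 415 clearly lower regions in red and equal means as a dashed line. The red points lie below the line by 1.52 to 4.58 times and span control means of 7.02 to 70.7.

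In most measures of shape the clearly lower regions resembled the rest. The focus ratio, the deposited fraction of a peak's tags near its centre, had a median of 0.668 in the controls against 0.672 over all shared regions. Their fold over the local surroundings, as the authors' lists give it, had a median of 15.5 against 13.1 in the controls and 11.4 against 12.9 in dKO. That fold is built on the peak's own tags, so it is not independent of the rule. The midpoints of the highest peaks of the 6 libraries lay within a median of 66 bp of each other, against 59 bp over all shared regions. In 75 of the 415 regions (18.1%) these midpoints were spread over more than 100 bp, against 15.6% of all shared regions, so in those the values of different libraries may come from separate peaks.

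The dKO libraries were not equally low. Relative to the control mean of the same region, the median over the 415 regions was 42.8% in dKO 1, 38.5% in dKO 2 and 59.7% in dKO 3. Over all shared regions the same medians were 90.9%, 82.3% and 107.6%, so dKO 3 was the highest of the dKO libraries there too. In 382 of the 415 regions (92%) dKO 3 held the highest dKO value, against 73.7% of all shared regions, and it was then the library that set the margin. Without dKO 3 the rule was met by 5081 regions. Leaving out any library makes the rule easier to meet, and without dKO 1 or dKO 2 it was met by 521 and 463.

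**Figure D2:**
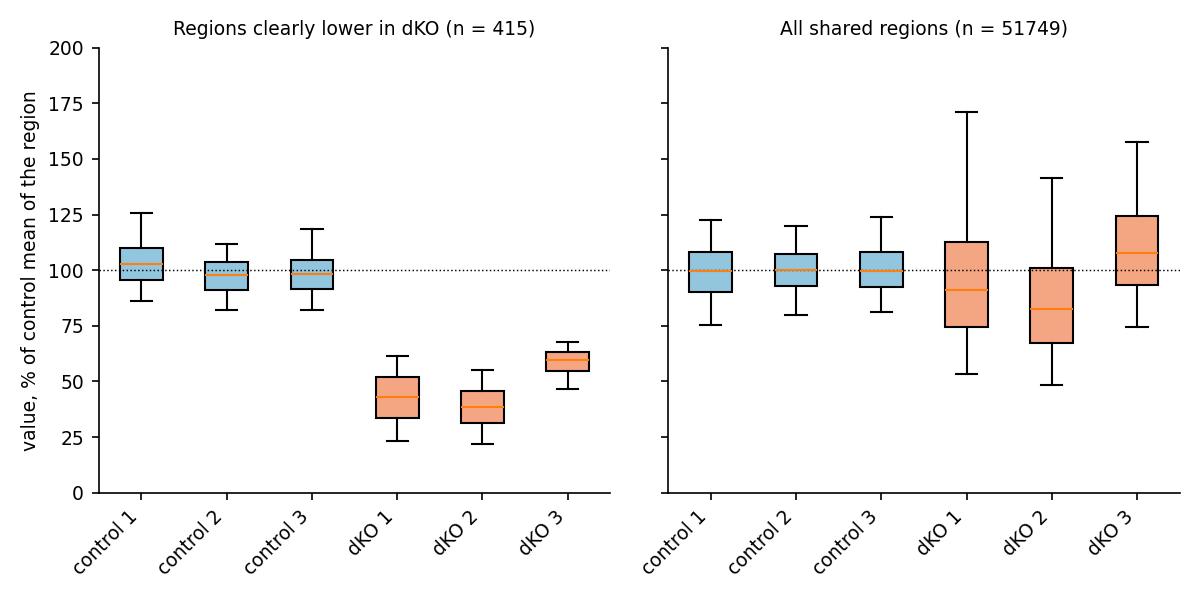
Value of each region in each library as a percentage of the region's control mean, for the 415 clearly lower regions and for all shared regions (boxes are quartiles with the median, whiskers the 5th and 95th percentiles). Among the clearly lower regions the medians are 42.8%, 38.5% and 59.7% in dKO 1, 2 and 3, and over all shared regions 90.9%, 82.3% and 107.6%.

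The value of dKO 3 over the mean of dKO 1 and dKO 2 had a median of 1.44 among the clearly lower regions and 1.24 over all shared regions. It was at least 2 in 62 of the 415 (14.9%), against 1.35% of all shared regions. A region with no protein-coding gene within 50 kb, at chr4:55242353-55242577, had the widest gap. Its control values were 35.2, 33.4 and 30.5, and its dKO values 4.78, 4.86 and 17.1, so dKO 3 stood at 3.55 times the mean of the other dKO libraries. At the other end a region 1498 bp from Slc2a7, a hexose transporter, had 7.81, 7.53 and 6.38 in dKO 1 to 3, and dKO 3 was the lowest there. Peak width moved with these values. The control over dKO mean had a median of 2.47 within the 108 bp lists (1 control, 2 dKO). Within the 166 or 172 bp lists (2 control, 1 dKO) it was 1.65. Since dKO 3 is the only dKO library of the wider class, width and library cannot be told apart among the dKO libraries. In the controls, the median percentage of the region's control mean was 102.8% in control 1 (108 bp) and 97.7% and 98.3% in controls 2 and 3 (wider lists). The part of peak width in the gap between the dKO libraries was not tested.

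The clearly lower regions lay away from genes more often than shared regions at large. Of the 415, 170 (41.0%) had their midpoint inside the span of a protein-coding gene, against 57.0% of all shared regions and 62.8% of the regions that met the mirror rule. For 94 (22.7%) there was no protein-coding span within 50 kb, against 10.8% and 11.5%. Gene ends were seldom involved, with 30 of 415 (7.23%) within 1 kb of one, against 22.2% of all shared regions and 4.08% of the mirror set.

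Measured from the listed starts of coding genes, on the chromosomes that the promoter table covers, 19 of 400 clearly lower regions (4.75%) were within 1 kb and 147 (36.8%) were more than 100 kb away. Over all shared regions these shares were 19.1% and 20.4%, and in the mirror set 2.28% and 23.0%. Read the other way, the share of shared regions that were clearly lower was 0.199% within 1 kb of a start and 1.44% beyond 100 kb. The mirror rule gave 0.22% and 2.07% in those classes and was highest, at 2.6%, between 50 and 100 kb. The median control mean was 32.7 within 1 kb of a start and 13.3 beyond 100 kb, so the comparison was repeated among regions with a control mean of 20 to 50. There 8 of 216 clearly lower regions (3.7%) were within 1 kb of a start, against 29.7% of all shared regions of that strength, and 31.5% against 16.7% were beyond 100 kb. The mirror set held only 22 regions of that strength, 0 within 1 kb and 6 (27.3%) beyond 100 kb. Its rule picks regions with low control values (median control mean 7.56), so these few say little about distance. Over the full sets, both held a smaller share within 1 kb of a start than all shared regions. Beyond 100 kb the mirror set (23.0%) was near all shared regions (20.4%), and the clearly lower set (36.8%) was not.

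**Figure D3:**
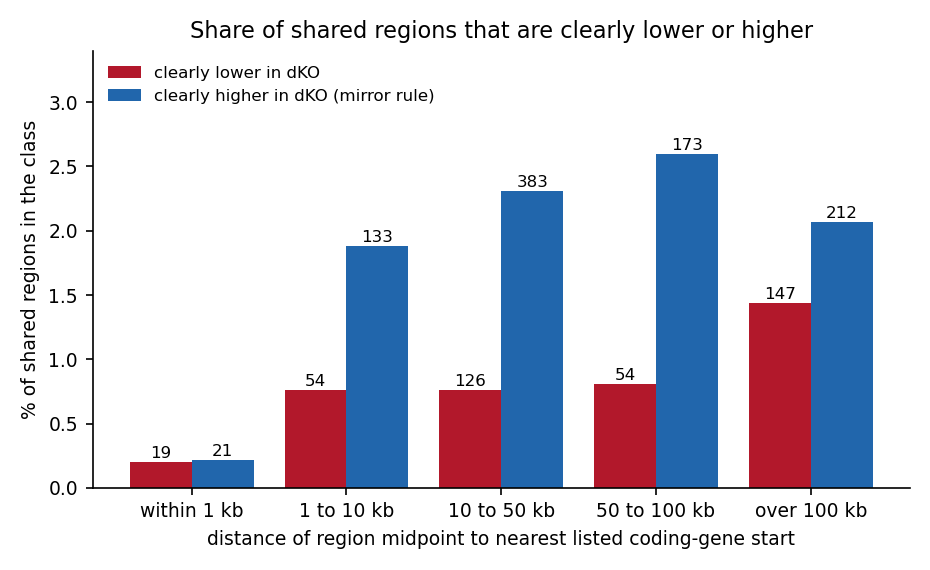
Share of shared regions (y, percent) that were clearly lower (red) or met the mirror rule (blue) by distance from the region's midpoint to the nearest listed start of a coding gene (x); numbers on the bars are regions. The clearly lower share rises from 0.199% within 1 kb to 1.44% beyond 100 kb.

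By chromosome, the share was 1.31% on chromosome 3 (37 regions) and 1.2% on X (13 regions), and 0.324% on chromosome 17 (7 regions). Chromosome 19 held 1 of 1382 shared regions (0.0724%), the region inside Cyp2c67. On X the mirror rule was met by 5 regions (0.463%), fewer than the clearly lower ones, which was not so on any of the 19 autosomes.

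Other shared regions beside a clearly lower one also tended to be lower. All 51749 shared regions were fitted with limma on log2(value + 1), which called 5995 (11.6%) lower and 4240 (8.19%) higher in dKO at a Benjamini-Hochberg adjusted p of 0.05. The 415 regions were all called lower, which their choice fixes. Among the 51334 other shared regions, 10.9% were called lower and 8.26% higher. Within 10 kb of a clearly lower region there were 384 others, of which 154 (40.1%) were called lower and 4 (1.04%) higher. Their median log2 fold change was -0.34, against -0.02 for all the others.

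The share called lower fell with distance. It was 59 of 105 (56.2%) within 2 kb, 32 of 72 (44.4%) at 2 to 5 kb, 63 of 207 (30.4%) at 5 to 10 kb and 264 of 1201 (22.0%) at 10 to 50 kb. At 50 to 200 kb it was 13.5% and farther away 10.2%. These neighbours were measured in the same libraries that chose the clearly lower regions, so their calls are not independent of that choice. Without dKO 1 the count within 10 kb was 74 (19.3%, against 3.24% of all the others), and without dKO 2 it was 59 (15.4%, against 1.99%).

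**Figure D4:**
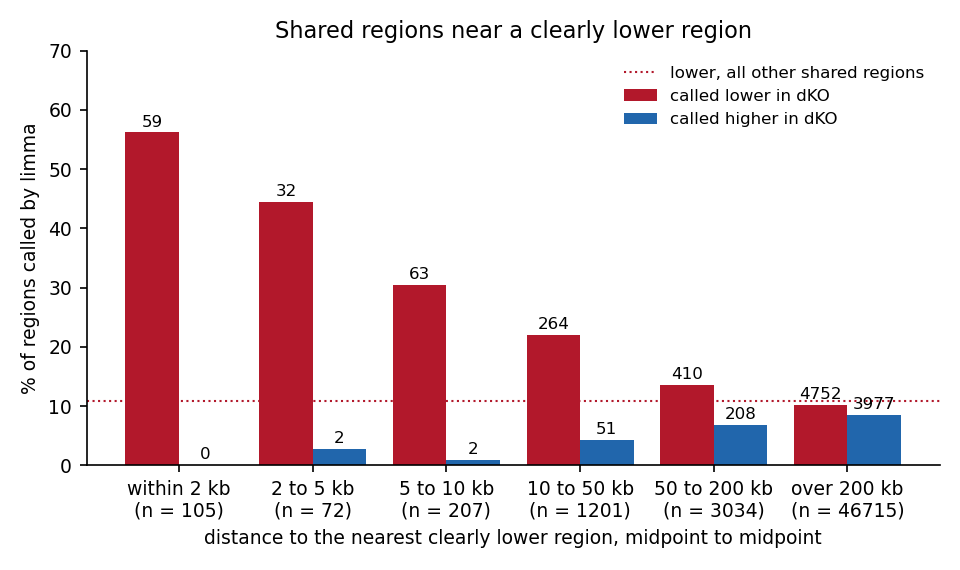
Share of other shared regions (y, percent) that limma called lower (red) or higher (blue) in dKO, by distance to the nearest clearly lower region (x, midpoint to midpoint, with the number of regions). The dotted line is the share called lower among all other shared regions. The lower share goes from 56.2% within 2 kb to 10.2% beyond 200 kb.

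Of the 415 regions, 253 had another shared region within 10 kb, 125 had one that was called lower and 4 had one that was called higher. Greb1, the neighbour of smallest adjusted p, and Ciita, the sixth in that order, were picked after their values were seen. In Greb1, an oestrogen-responsive gene, a region 7753 bp from a clearly lower one had control values of 56.5, 47.7 and 53.8 and dKO values of 22.1, 21.0 and 35.1. It fell by 0.96 on the log2 scale (SE 0.14, limma adjusted p = 0.00129), and every dKO value lay under every control value. In Ciita, the master regulator of MHC class II genes, a region 500 bp from a clearly lower one fell by 1.35 (SE 0.22, limma adjusted p = 0.00239), from 39.9, 35.1 and 32.9 to 9.03, 9.83 and 23.7. It missed the limit of the rule because dKO 3 was too high, at a margin of 1.39.

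The 4 neighbours that were higher in dKO lay at Cela2a, Itpr1, Zfat and Tpt1. In Itpr1, which encodes an inositol trisphosphate receptor that releases calcium from the endoplasmic reticulum, a region with 16.2, 11.8 and 10.4 in the controls and 25.6, 20.1 and 17.0 in dKO rose by 0.73 (SE 0.20, limma adjusted p = 0.023). It lay 9793 bp from a clearly lower region of the same gene with 28.3, 25.2 and 24.9 in the controls and 6.64, 9.25 and 12.9 in dKO. The gene thus held regions that differed in opposite directions. The other 3 rose by 0.55 to 0.59, with adjusted p of 0.0198 to 0.0498 by limma. Among regions that lacked a peak in at least 1 library, 558 lay within 10 kb of a clearly lower region, and 25 of them (4.48%) had peaks in all controls and no dKO library, against 2.53% of all such regions, while 11 (1.97%) had the reverse, against 2.97%.

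The largest margin belonged to a region with no protein-coding gene within 50 kb, at chr3:66576754-66576944, 280012 bp from the listed start of Veph1. It had 29.7, 30.2 and 31.2 normalized tags in the controls and 4.55, 3.66 and 11.7 in dKO, a margin of 2.54. The group means were 30.4 ± 0.764 and 6.64 ± 4.41 (SD, n = 3 each). The control values were nearly equal and the spread was in the dKO libraries, where dKO 3 was highest. Of the 15 regions with the largest margins, 2 others also had no gene within reach. At chr6:98591046-98591265 the values were 18.3, 20 and 21.2 against 5.48, 5.17 and 9.11, and at chr2:137553888-137554176, 437512 bp from the start of Jag1, 21.9, 20.1 and 20.3 against 4.02, 3.97 and 10.4.

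Among the next largest margins were regions at Chn1, Tnfrsf21, Srbd1, Car1 and Xiap, in that order. A region inside Chn1 (chr2:73616557-73616932), which encodes chimaerin, a GTPase activating protein for Rac, had 29.4, 32.9 and 28.3 against 7.58, 6.79 and 12.3, a margin of 2.30. Its peak midpoints were spread over 267 bp, so separate peaks may enter. A region 17088 bp from Tnfrsf21 (chr17:43106187-43106365), which encodes death receptor 6, had 47.8, 49.5 and 46.5 against 6.76, 6.59 and 20.7. That is a mean of 47.9 ± 1.5 in controls and 11.4 ± 8.1 in dKO (SD, n = 3 each), with dKO 3 at 3.10 times the mean of the other dKO libraries. A region 14409 bp from Xiap (chrX:42045060-42045349), an inhibitor of caspases, had 12, 14.2 and 11.7 against 5.48, 3.76 and 5.77, and here dKO 1 and dKO 3 were nearly equal. Xiap held another clearly lower region, inside its span, with 16.6, 12.7 and 13.2 against 7.34, 5.64 and 7.96.

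A region 49391 bp from Dlk1 (chr12:109512609-109512845), an imprinted gene for a Notch-like ligand, had 30.3, 29.7 and 21.1 against 5.13, 5.44 and 10.9. Control 3 stood below the other controls there, and dKO 3 above the other dKO libraries. Others of the 15 were linked to Srbd1, Car1, Cyp2d10, Gm17434, Itpr1, Tmem19 and Stxbp6, with margins of 1.90 to 2.15. The Srbd1 region had peak midpoints spread over 227 bp and 1 control, at 26.0, above the other two at 15.9 and 17.5.

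The strongest clearly lower regions in control nuclei were linked to Ccdc148, Slc22a7, Arhgap32 and Hcn3 or, 61126 bp from Mycn, to no gene. Slc22a7 encodes an organic anion transporter of the hepatocyte's blood side, and a region 248 bp from its span (chr17:46438621-46438829) had 80.6, 62.2 and 62.5 against 21.9, 20.5 and 39.1. The region in Ccdc148 had 67.5, 77.3 and 67.2 against 31.6, 30.5 and 46.0, the highest control mean at 70.7 ± 5.75 (SD, n = 3). The region inside Hcn3, a pacemaker channel gene, lay 11251 bp from the listed start of Pklr, which encodes the liver pyruvate kinase (chr3:89147778-89147970). Its controls differed among themselves, at 47.9, 97.1 and 58.9, and the dKO values were 10.8, 11.3 and 32.1. The lowest control stayed above the highest dKO value by 1.49 times.

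**Figure D5:**
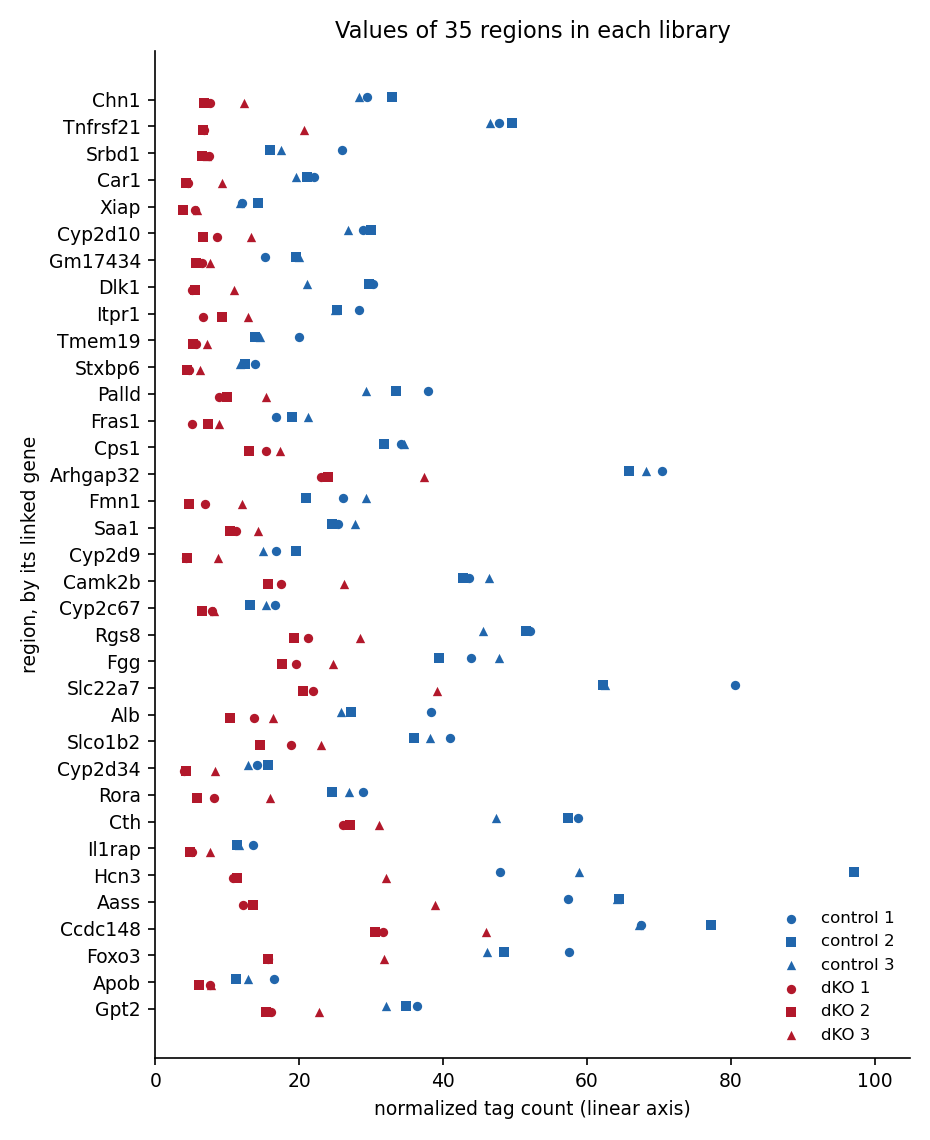
Normalized tag count (x, linear axis) of 35 named clearly lower regions in each of the 6 libraries, with controls in blue, dKO in red and a marker for each replicate number. At each region the blue markers lie to the right of the red ones, by the rule, and dKO 3 is most often the red marker nearest to them.

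Clearly lower regions lay mostly alone, with 353 more than 100 kb from any other, 25 pairs and 3 runs of 3 or more. They were linked to 305 genes, 14 of which held more than 1. Fras1, an extracellular matrix protein, held 2 inside its span, with 16.8, 19 and 21.2 against 5.01, 7.32 and 8.87 at the one of larger margin. Camk2b, a calcium and calmodulin dependent kinase subunit, also held 2, with 43.6, 42.8 and 46.4 against 17.4, 15.7 and 26.2 at one and 42.4, 38.6 and 37.8 against 20.7, 16.9 and 25.8 at the other. In both genes no control value came near a dKO value, as the rule asks. Of the 3 runs, 2 lay in the Cyp2d cluster of chromosome 15, which encodes cytochrome P450 enzymes of drug and steroid oxidation. The genes of that cluster are near-identical copies, so reads may be split between them and values there are uncertain. Of 22 shared regions linked to Cyp2d genes, 6 (27.3%) were clearly lower.

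The first run spanned chr15:82423002-82452454 and held 5 shared regions, 3 of them clearly lower. Near Cyp2d10 the values were 28.9, 30.0 and 26.7 in the controls and 8.51, 6.59 and 13.3 in dKO. A region 14246 bp from Cyp2d9 had 16.8, 19.6 and 15 against 4.26, 4.39 and 8.69. The region over the Cyp2d9 start, whose sequence is given above, was the strongest, with 46.6, 45.3 and 36.3 against 11, 11.2 and 22.2. The remaining 2 shared regions of the run were both called lower by limma. In the second run, at chr15:82622904-82748467, 4 of 8 shared regions were clearly lower (2 linked to Cyp2d34, 1 to Cyp2d40 and 1 to no gene) and the other 4 were called lower by limma. Of 108 shared regions at P450 families 1 to 3, 7 (6.48%) were clearly lower, and limma called 26 lower and 7 higher. The only one of the 7 outside this cluster was inside Cyp2c67, with 16.6, 13.2 and 15.4 against 7.87, 6.48 and 8.2.

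The third run lay around Car13 and Car1 on chromosome 3 (chr3:14700473-14829120), which encode carbonic anhydrases, the enzymes that convert carbon dioxide and bicarbonate. It held 12 shared regions, of which 5 were clearly lower, 3 others were called lower and none was called higher by limma. The region with the largest margin, 38513 bp from Car1, had 22.0, 21.0 and 19.5 against 4.49, 4.29 and 9.3. Within the Car1 span a region with 18.7, 26.0 and 17.6 against 8.39, 6.12 and 11.9 was clearly lower. A few kb away in the same gene a region with 16.4, 15.3 and 10.5 in the controls had 17.4, 13.9 and 11.7 in dKO, and its groups overlapped. The run was therefore not lower throughout.

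Genes of glucose handling included Slc2a2, Foxo3 and Gpt2. The region over the Slc2a2 start (chr3:28697808-28697980) had 57.2, 58.3 and 45 against 18.5, 17.3 and 30.5, or 53.5 ± 7.38 against 22.1 ± 7.30 (SD, n = 3 each), and its peak midpoints agreed within 5 bp. Over all shared regions limma called 11.6% lower and 8.19% higher with a median log2 fold change of -0.02, against which the calls on each gene list are to be read. On the gluconeogenesis list 2 of 74 shared regions (2.7%) were clearly lower, beside 0.802% of all, and limma called 27 lower and 5 higher with a median log2 fold change of -0.22. Foxo3, a forkhead factor held back by insulin signalling, had 57.5, 48.5 and 46.1 against 15.6, 15.7 and 31.8 at a region inside the gene. Gpt2, the mitochondrial alanine transaminase, had 36.4, 34.9 and 32.0 against 16.1, 15.4 and 22.8 at a region 14026 bp away. Both had dKO 3 as the highest dKO value. Foxo3 was also the only gene with a clearly lower region on the growth hormone, IGF and insulin list (1 of 162, 0.617%), a share near the background, and limma called 25 of that list lower and 10 higher.

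For the glucocorticoid receptor and its targets, the subject named in the title, 0 of 97 shared regions were clearly lower, while limma called 31 lower and 6 higher (median -0.33). In the hepatocyte transcription factor list it was 0 of 110, with 22 called lower and 3 higher (median -0.20). At a share of 0.802%, lists of this size hold few clearly lower regions, so a count of 0 says little. The small counts on the other lists rest on few regions too. The median control mean of the lists ran from 14.1 to 31.8, against 16.2 over all shared regions, and no comparison at equal strength was made for them.

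Amino acid and nitrogen metabolism had 4 clearly lower regions of 114 (3.51%), and limma called 48 of that list lower and 5 higher (median -0.32). Cps1, the entry enzyme of the urea cycle, had 34.2, 31.8 and 34.5 against 15.3, 13 and 17.3 at a region 5649 bp away, and these dKO values were close together. Cth, which makes cysteine from cystathionine, had 58.7, 57.4 and 47.4 against 26.1, 27.0 and 31.1. Aass held 2 such regions. The one 14434 bp away had 57.4, 64.4 and 64.2 against 12.1, 13.6 and 38.8, with dKO 3 at 3.02 times the mean of the others. The one over the promoter window had 44.8, 31.9 and 44.5 against 17.5, 18.6 and 22.7, where dKO 3 stood less far apart.

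Plasma proteins of the hepatocyte had 3 clearly lower regions of 111 (2.7%), with 42 called lower and 5 higher by limma. They lay 4447 bp from Fgg (fibrinogen gamma chain, 43.8, 39.4 and 47.7 against 19.6, 17.6 and 24.7), 13070 bp from Alb (albumin, 38.3, 27.2 and 25.8 against 13.7, 10.4 and 16.3) and 30405 bp from Apob (apolipoprotein B, 16.5, 11.2 and 12.8 against 7.58, 6.01 and 7.78). All 3 lay outside their genes. The acute phase list had 2 of 92 (2.17%), near Saa1, a serum amyloid protein (25.4, 24.6 and 27.8 against 11.2, 10.3 and 14.2), and inside Il1rap, the interleukin 1 receptor accessory protein (13.6, 11.4 and 11.6 against 5.07, 4.81 and 7.53), and limma called 26 of that list lower and 4 higher.

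Transport and bile acid genes gave Slco1b2, an uptake transporter of bile acids and drugs, as the only clearly lower region of 95 on that list (1.05%), 18440 bp from the gene, with 40.9, 35.9 and 38.1 against 18.8, 14.5 and 23.0. On that list limma called 18 lower and 15 higher, and the mirror rule was met by 5 regions. In the circadian clock list it was Rora, a nuclear receptor that drives the clock gene Bmal1, alone of 126 (0.794%), with 28.8, 24.5 and 26.9 against 8.16, 5.75 and 15.9. More clock regions were called higher (20) than lower (16), and 7 met the mirror rule. In the glucagon and cyclic AMP list it was Rgs8, a regulator of G protein signalling, alone of 188 (0.532%), with 52.1, 51.5 and 45.5 against 21.2, 19.2 and 28.5. In that list too more were called higher (35) than lower (14), and 16 met the mirror rule. The clearly lower shares of these lists are near the background. Lipogenesis and sterol synthesis had 0 of 143, with 30 called lower and 14 higher, and fatty acid oxidation with PPAR alpha targets 0 of 76, with 9 lower and 13 higher.

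Regions at genes of the cell skeleton and its control were named too. Palld, an actin bundling protein, had 37.9, 33.5 and 29.2 against 8.86, 9.88 and 15.4. Arhgap32, a GTPase activating protein, had 70.4, 65.9 and 68.2 against 23.0, 24.0 and 37.3, with controls that were close together. Fmn1, a formin that extends actin filaments, had 26.1, 20.9 and 29.3 against 6.94, 4.65 and 12. In all 3 the dKO 3 value was the highest of the dKO values.

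Over promoters the other coding genes were Ccdc89, Lrch4, Ftsj1, Orc6, Tdrkh, Morf4l2, Ccdc85a, Susd4, Stt3a and Taf13. The Mcm3 region had 32.4, 20.7 and 20.4 against 9.68, 8.36 and 12.3, with peak midpoints spread over 193 bp. Its control 1 value stood above the other two. The Sult1b1 region had 23.1, 23.3 and 26.1 against 15.6, 14.6 and 16.4, so the dKO libraries were nearly equal there and the control over dKO mean was 1.56. At Orc6, a subunit of the origin recognition complex, the values were 22.2, 15.3 and 15.5 against 9.21, 7.21 and 10. Its midpoints were spread over 393 bp, and when all peaks of a library in the region were summed the margin was 0.84, so the groups overlapped.

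Families of secreted and metabolic enzymes were looked at after their values were seen. Of 52 shared regions at major urinary proteins, which carry pheromones in male urine, 4 (7.69%) were clearly lower, at Mup3, Mup20, Mup22 and Mup-ps12. The one 373 bp from Mup3 had 26.7, 44.7 and 22.7 against 9.15, 8.36 and 14.3. Both 3 beta hydroxysteroid dehydrogenase regions, of 10 shared, lay inside their genes, with 22.7, 21.5 and 23.9 against 9.68, 8.99 and 14.5 at Hsd3b3 and 32.7, 33.0 and 47.1 against 14, 12.5 and 23.1 at Hsd3b5. Serpina1e, an alpha 1 antitrypsin copy, had 35.9, 29.0 and 30.3 against 7.46, 7.79 and 18.8. These genes too lie in clusters of close copies, and their values carry the same uncertainty. Solute carriers as a class gave 12 of 1090 (1.1%).

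At the limit of the rule, regions on either side differed little. Just inside were regions at Dock1, a Rac activator (9.85, 9.19 and 13.5 against 6.0, 3.92 and 6.56), Adam24 (40.0, 30.8 and 33.5 against 17.8, 17.5 and 22.0) and Slc12a3, a sodium chloride cotransporter (38.6, 35.0 and 43.8 against 23.3, 16.8 and 25), with margins of 1.4. Just outside, all with margins of 1.398, were regions at Sucnr1, the succinate receptor (9.79, 7.18 and 6.11 against 4.2, 3.76 and 4.37), Ccdc126 (15.8, 16.5 and 11.8 against 4.26, 3.97 and 8.44) and Erp27 (43.3, 41.1 and 48.6 against 15.6, 18.9 and 29.4).

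The sorted nuclei were checked against marker genes. Of 34 shared regions at 10 hepatocyte markers, 3 were clearly lower (at Cps1, Alb and Apob), and limma called 14 lower and 0 higher, where 6 other cell types' lists had 11 lower and 3 higher of 91. Summed over the 34 regions, the level was 1112 to 1174 normalized tags in controls and 768.2, 685.1 and 994.3 in dKO 1, 2 and 3. Apoa1 and Fgb had no shared region. None of the 91 shared regions at markers of the other liver cells was clearly lower, and at the background share of 0.802% a set of this size would hold few or none. Of the 54 marker genes of those cells, 29 had a shared region. Summed levels were 36.6 to 44.5 in controls and 29.3 to 50 in dKO for Kupffer cells, 460.1 to 581.0 and 360.8 to 495.4 for sinusoidal endothelium, and 99.1 to 108.5 and 92.9 to 111.2 for stellate cells. They were 449.3 to 496.3 and 375.2 to 498.0 for cholangiocytes, 382.0 to 487.8 and 302.2 to 428.7 for lymphocytes, and 20.8 to 25.3 and 24.6 to 28.9 for neutrophils. Among the markers without a shared region were Clec4f, Adgre1, Krt19, Krt7, Cftr, Nkg7 and S100a8, while 9 of 10 endothelial, 7 of 10 stellate, 5 of 8 cholangiocyte and 4 of 10 lymphocyte markers had one, as did 2 of 10 Kupffer and 2 of 6 neutrophil markers. The part of other cells or of hepatocyte state in the clearly lower regions was not tested.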

How the data were processed

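HOMER 4.11, SAMtools 1.10, Picard and Trim Galore 0.6.4 were used with mm10, per the submitters' processing notes. For the aligner, read filters, any cut-site shift and peak options, settings were not given in the sources used here. Every deposited peak list is of 1 library, so peaks were not called on pooled libraries. Per the file headers, the lists give a normalized tag count, which is the depth-scaled signal used here. Per the same file headers, the authors' lists also give a focus ratio, the fraction of tags near the peak centre, a fold over local surroundings and its p-value, of which the p-value was not used. The score was used as deposited, to filter peaks within a list. Low values lie on a regular step and larger ones are rounded, so no count model was used.

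Chromosome Y peaks, 17 to 24 in each list, were not used. Shared regions were fitted as log2(value + 1), each library centred on its median, by limma 3.58.1 with a trend in R 4.3.3, with 2-sided p-values adjusted by Benjamini-Hochberg over all shared regions. The procedure was tested on simulated data. The members, lists and neighbour distances were chosen with earlier results of these data known. Regions were linked to the closest protein-coding span of the RefSeq gene table (GRCm38.p6) within 50 kb of their midpoint. The promoter table covered 17273 of 21627 coding genes (79.9%), and 231 of the 305 linked genes were in it; chromosome 18 was not used for distances to starts. Exons, introns and UTRs were not analysed here, and no genome was used. Coordinates are as the files give them.

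Named regions were the 15 of largest margin, the 5 of highest control mean, the genes with most members (up to 8), up to 4 genes of each list, and 3 on either side of the limit. Regions over promoters, families, neighbours and extremes of dKO 3 were added after their values were seen. Other region values, scalings, limits, merging distances, filters, pseudocounts, a width term, a replicate block and leaving out each library were tried. The second floxed gene, 1 gene list and some named regions are not reported here. Tables and figures were made with Python 3.11.15, pandas 2.3.3 and matplotlib 3.10.9.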

Additional observations from a re-analysis of the deposited data

How the results depend on the processing

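The count of 415 clearly lower regions depended on scaling, limit and library. It was 695 with libraries scaled to a common median (378 of the 415 among them) and 718 with quantile normalized values (361 among them). It was 1927 at a limit of 1.2 times, 87 at 1.6 and 9 at 2, and 97 among peaks in the upper part of each list by score. Leaving out 1 library gave 463 to 5081, the highest without dKO 3. Without control 1, 2 or 3 it was 634, 941 and 815. Within the 108 bp lists it was 10452 and within the 166 or 172 bp lists 746. With fewer libraries the rule is easier to meet, so a rise in these counts was largely fixed in advance. Summed peaks (413) and other merging distances (386 and 423) gave counts close to the first. Regions with midpoints within 100 bp, an alternative chosen after seeing the data, numbered 340.

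The 5995 limma calls of lower regions became 1953 when regions under a mean of 20 were dropped, and 1402 to 8123 when 1 library was left out, with 2061 without dKO 1 and 1402 without dKO 2. The 154 neighbours called lower within 10 kb became 91 within 5 kb (51.4%) and 418 within 50 kb (26.4%). At 2 to 10 kb, also chosen after seeing the data, they were 95 (34.1%). Leaving out 1 library gave 59 to 162. The share within 1 kb of a gene end, 7.23%, was 12.5% within 2 kb, 6.27% with quantile normalized values and 0.0% (0 of 9) at a limit of 2 times. Of 58 named margins, the one at Orc6 fell under 1, to 0.841, with summed peaks. At the limit of 1.4, 53 stayed with a common median and 48 with quantile normalized values. The cause of these changes was not tested.

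Both groups carry the replicate numbers 1 to 3. The labels do not say that these numbers pair the libraries, so they were not taken to. Deviations from the group mean correlated at 0.146, -0.032 and 0.234 for libraries with the same number, and at -0.23 to 0.157 for different numbers. Deviations from a mean of 3 libraries are not independent, so these values cannot decide whether libraries were paired. With a replicate block limma called 7384 regions lower, and 174 of the neighbours within 10 kb.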
